A study of Mus musculus with 16 samples.

Results

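The ephrin, Slit and netrin guidance systems are described here as 38 genes, chosen by name from these ligand and receptor families. Some relatives, such as Robo3, Robo4 and Ntn5, lie outside the 38. They were 38 of 25719 gene identifiers in the count files, and all 38 passed the filter on low counts that left 15109 genes to test. The set holds 22 receptors (9 EphA, 5 EphB, 2 Robo, 4 Unc5, and Dcc with its relative Neo1) and 16 ligands (5 ephrin-A, 3 ephrin-B, 3 Slit, 3 netrin, Rgma and Draxin). Their levels were followed in whole trigeminal ganglia, the sensory ganglia of the face, by sequencing of polyadenylated RNA. There were 4 libraries each from postnatal day 25 (P25) Nogo-A knockout (KO) mice, P25 wild-type (WT) mice, embryonic day 14 (E14) KO mice and E14 WT mice. Nogo-A, a product of the gene Rtn4, is a membrane protein best known for limiting axon growth. The labels name neither strain nor sex, nor how the KO allele was built, and each library came from 1 ganglion.

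Ephrins are ligands held at the cell surface, the A class by a lipid anchor and the B class by a membrane-spanning stretch, and they signal to Eph receptor tyrosine kinases on the cells they touch. Slits are large secreted proteins that repel axons through Robo receptors, and in sensory neurons they are also known for promoting axon branching. Netrins are secreted proteins related to laminins that attract axons through Dcc and repel them through Unc5 receptors, while Neo1 binds both netrins and the repulsive guidance molecules such as Rgma. Draxin is a secreted repellent that binds Dcc and netrin-1.

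Library totals ran between 15532373 and 29562379 estimated counts. Levels below are CPM, counts scaled to a common library total after TMM normalization (trimmed mean of M values), and a gene was called lower or higher where the edgeR quasi-likelihood test gave a Benjamini-Hochberg adjusted p under 0.05 over all 15109 genes. Total Rtn4 read 344.9 to 384.5 CPM in P25 KO and 405.8 to 542.3 CPM in P25 WT, and 236.1 to 404.9 CPM in E14 KO and 144.4 to 521.4 CPM in E14 WT (log2 fold change -0.41, adjusted p = 1, at P25, and -0.27, adjusted p = 0.943, at E14). Since this total also counts Nogo-B and Nogo-C, shorter products of the same gene, it is no check of the genotype labels. All 9 sensory neuron markers were detected, at a summed 11248 to 18363 CPM across the 4 groups. E14 WT replicate 2 stood apart, with the highest level of its group for 22 of the 38 members and the lowest for 12 (all genes tested, 42.6% and 38.2%). The series' design gives 4 animals for each group. The library names of E14 WT replicates 2 and 4 hold the same number with opposite sides, R and L, as do those of E14 KO replicates 1 and 3, and what the number stands for is not labelled. Should it mark an embryo, p-values that use E14 libraries would cover a spread that is partly within an animal. Those of the stage comparisons and the interaction are among them.

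Most of the guidance genes were lower at P25 than at E14. Of the 38 members, 22 were called lower and 6 higher at P25 in KO ganglia, and 26 lower and 6 higher in WT ganglia. Over all tested genes, 29.2% were called lower and 30.6% higher in KO (59.8% in either direction), and 29.8% lower and 29.7% higher in WT (59.6%). The median log2 fold change of the members was -1.05 in KO and -1.31 in WT, against 0.01 and 0.00 over all genes. The same direction was called in both genotypes for 27 members, of which 21 were lower and 6 higher. The share of all genes called the same way in both genotypes was not counted, so these counts have no background beside them. The 4 P25 libraries and the 4 E14 libraries did not overlap for 28 members in KO (22 lower, 6 higher) and for 27 in WT (23 lower, 4 higher). Over all genes, such separation was seen for 59.8% in KO (29.3% lower, 30.5% higher) and 50.2% in WT (24.2% lower, 26.1% higher). By role, 11 of 16 ligands were lower and 4 higher in both genotypes, and 10 of 22 receptors were lower and 2 higher. A further 5 receptors were called lower in WT alone and 1 in KO alone, while the remaining ligand was called in neither. These counts by role have no share over all genes beside them. Without E14 WT replicate 2, 29 members were called in KO and 33 in WT. Over all genes, 10284 of 15314 were then called in KO and 9688 in WT, against 9032 and 9001 of 15109 with all libraries.

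**Figure D1:**
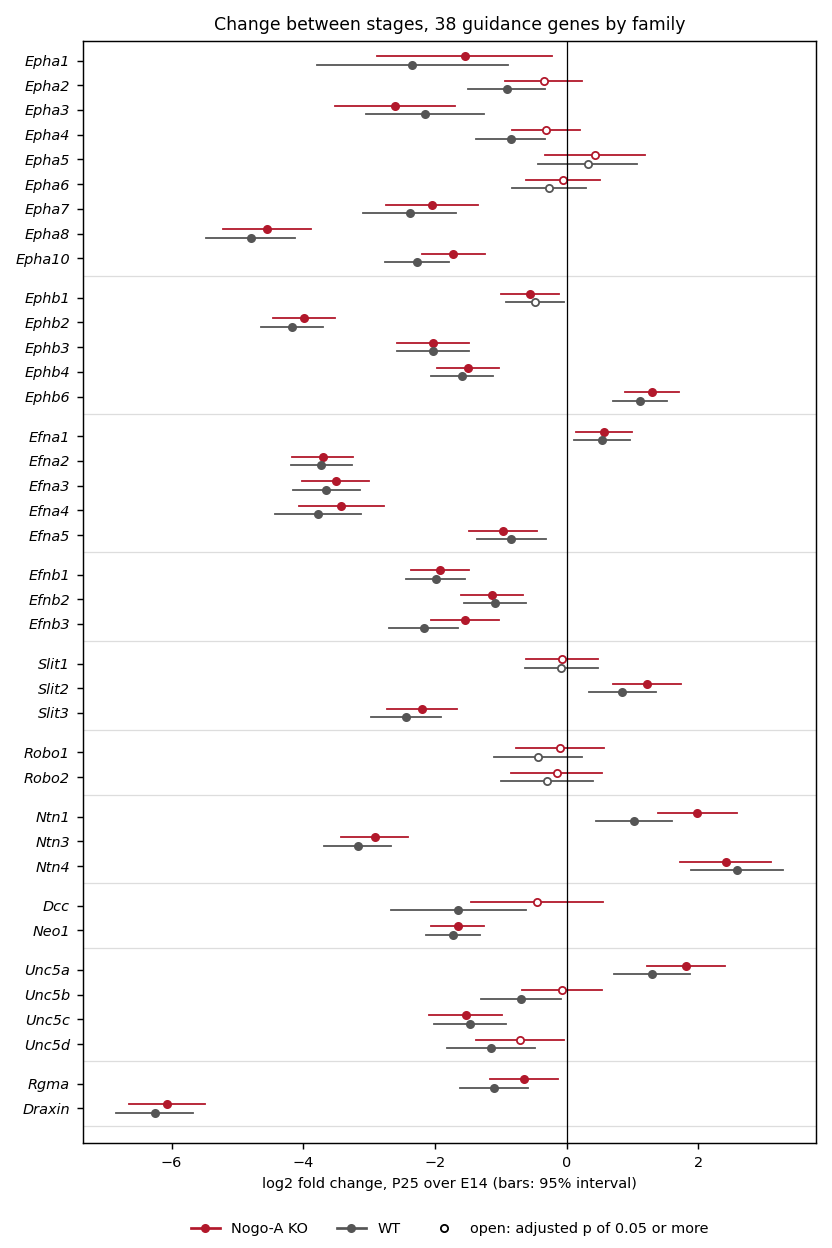
Log2 fold change of each of the 38 members, P25 minus E14, in KO and in WT ganglia, with 95% intervals and members grouped by family. Draxin lies lowest, at -6.07 in KO and -6.26 in WT, and Ntn4 highest, at 2.42 in KO and 2.59 in WT.

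In bulk tissue, fewer cells of a type and less RNA per cell cannot be told apart, and the makeup of the ganglion moved with stage. Markers of progenitors and early neurons were lower at P25 (4 of 4 tested in both genotypes), at a summed 7.34 to 12.2 CPM in P25 KO and 6.18 to 9.38 CPM in P25 WT, against 339 to 796 CPM in E14 KO and 240.2 to 839 CPM in E14 WT. All 6 markers of myelinating Schwann cells were higher, at a summed 21087 to 43262 CPM in P25 KO and 27464 to 32295 CPM in P25 WT, against 441 to 543 CPM in E14 KO and 408 to 578 CPM in E14 WT. Endothelial markers fell (4 of 5 in KO, 5 of 5 in WT), and their sum was 45.1 to 85.5 CPM in P25 KO and 45.2 to 66.4 CPM in P25 WT, against 167 to 217 CPM in E14 KO and 164 to 197 CPM in E14 WT. Macrophage markers rose (5 of 5 in KO, 4 of 5 in WT), to 113 to 172 CPM in P25 KO and 146 to 161 CPM in P25 WT, against 31.2 to 42.8 CPM in E14 KO and 40.7 to 67.5 CPM in E14 WT. Oligodendrocyte markers, which belong to the central nervous system, summed to 42.2 to 100.4 CPM in P25 KO and 1.36 to 85.7 CPM in P25 WT, and to at most 0.183 CPM at E14, where Olig2, Mobp and Opalin were at 0 in every library. Cell cycle markers fell (4 of 5 in KO, 5 of 5 in WT). Of 5 satellite glia markers 3 rose and 1 fell in both genotypes, of 7 mesenchyme markers 4 rose and 1 fell in KO and 3 rose and 1 fell in WT, and of 5 Schwann cell precursor markers 2 rose and 1 fell in KO and 2 rose and 2 fell in WT. Epithelial markers summed to at most 2.91 CPM and skeletal muscle markers to at most 8.33 CPM in any library. The part of these cell types in the stage differences of the guidance genes was not tested.

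**Figure D2:**
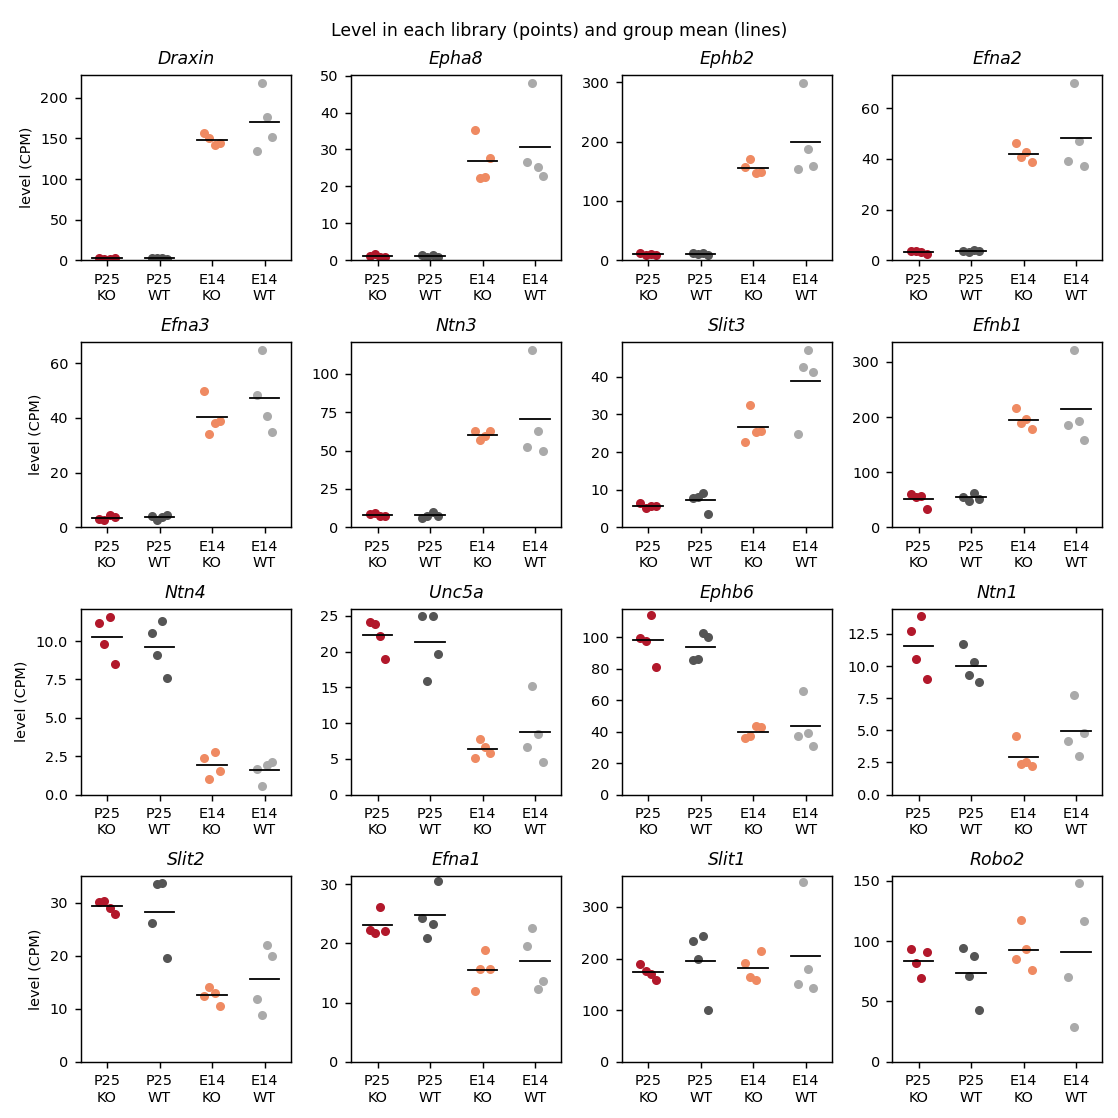
Level (CPM) in each of the 16 libraries, on linear axes that start at 0, for 16 of the 38 members. Each point is a library and each line a group mean, with P25 KO, P25 WT, E14 KO and E14 WT from left to right. Draxin, Ephb2, Efna2 and Efna3 are high in all 8 E14 libraries, and Ntn4 and Unc5a are high in all 8 P25 libraries.

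Ephrin-A ligands are known for setting up the maps that axons form in their targets. Among them, Efna2, Efna3, Efna4 and Efna5 were lower and Efna1 was higher at P25 in both genotypes. Efna2 read 3.5, 3.66, 3.19 and 2.54 CPM in the P25 KO libraries and 3.74, 3.12, 4.23 and 3.48 CPM in the P25 WT libraries, against 46.2, 40.9, 42.5 and 38.7 CPM in E14 KO and 38.97, 69.9, 47.1 and 37.3 CPM in E14 WT. The P25 and E14 libraries were far apart, and the log2 fold change was -3.71 (SE 0.22, adjusted p = 2.69e-11) in KO and -3.73 (SE 0.22, adjusted p = 2.29e-11) in WT. Efna3 read 3.01, 2.71, 4.56 and 3.89 CPM in the P25 KO libraries and 4.23, 2.65, 3.73 and 4.404 CPM in the P25 WT libraries, against 49.99, 34.2, 38.1 and 39 CPM in E14 KO and 48.5, 64.8, 40.9 and 34.8 CPM in E14 WT. Its log2 fold change was -3.51 (SE 0.24, adjusted p = 2.73e-10) in KO and -3.65 (SE 0.25, adjusted p = 1.51e-10) in WT, again with no overlap between stages. Efna4 read 0.371, 0.646, 0.456 and 0.318 CPM in the P25 KO libraries and 0.443, 0.253, 0.323 and 0.502 CPM in the P25 WT libraries, against 3.67, 4.76, 5.59 and 5.29 CPM in E14 KO and 4.13, 6.04, 5.8 and 5.302 CPM in E14 WT. The stages of Efna4 were separate too, and its log2 fold change was -3.42 (SE 0.31, adjusted p = 1.26e-08) in KO and -3.78 (SE 0.31, adjusted p = 3.43e-09) in WT. Efna1 read 22.3, 21.7, 26.1 and 22.02 CPM in the P25 KO libraries and 24.4, 20.9, 23.4 and 30.5 CPM in the P25 WT libraries, against 12.01, 15.6, 18.9 and 15.7 CPM in E14 KO and 19.6, 22.6, 12.3 and 13.7 CPM in E14 WT. Efna1 thus went the other way by less, with a change on the log2 scale of 0.57 (SE 0.21, adjusted p = 0.02303) in KO and 0.54 (SE 0.20, adjusted p = 0.0283) in WT. The P25 and E14 KO libraries did not overlap, while the highest E14 WT library lay above the lowest P25 WT library. The Efna1 call was lost without E14 KO replicate 1 (adjusted p = 0.0813) or P25 KO replicate 3 (0.0652), and in WT without E14 WT replicate 3 (0.0525) or P25 WT replicate 4 (0.0940).

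Efna1, Efna3 and Efna4 are neighbours on mouse chromosome 3 (GRCm38), all on the minus strand, with gaps of 32.8 kb between Efna1 and Efna3 and 10.4 kb between Efna3 and Efna4. Their promoters are shown because these adjacent genes moved in opposite directions. Each sequence is the RefSeq stretch (GRCm38.p6) before the start site, read 5′ to 3′ on the gene's strand, without bases that an annotated exon covers. Capitals mark GC boxes, searched as GGGCGG on both strands (CCGCCC on the strand shown).
Efna1: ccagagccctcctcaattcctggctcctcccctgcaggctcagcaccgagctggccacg
Efna3: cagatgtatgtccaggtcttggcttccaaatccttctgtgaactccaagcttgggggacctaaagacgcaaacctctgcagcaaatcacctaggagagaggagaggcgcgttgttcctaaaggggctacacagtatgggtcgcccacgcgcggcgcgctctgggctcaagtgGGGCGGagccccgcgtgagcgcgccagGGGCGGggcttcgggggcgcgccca
Efna4: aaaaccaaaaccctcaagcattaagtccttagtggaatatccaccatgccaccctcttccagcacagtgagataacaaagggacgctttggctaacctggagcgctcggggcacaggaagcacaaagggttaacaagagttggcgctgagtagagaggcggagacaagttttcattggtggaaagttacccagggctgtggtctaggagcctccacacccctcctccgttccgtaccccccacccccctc
They lie at chr3:89281143-89281201, chr3:89322966-89323189 and chr3:89338029-89338278. The 59 bases of Efna1 hold no GC box and 2 CpG, the 224 bases of Efna3 hold 2 GC boxes and 18 CpG, and the 250 bases of Efna4 hold no GC box and 7 CpG. The Efna1 stretch is short because exon bases were cut. Its whole window of 250 bases holds 1 GC box and 16 CpG, and that of Efna3 holds 3 and 19. In the whole RefSeq windows of 250 bases before the start, matched for 32 of the 38 members, a GC box was found in 24 of 32, against 32.7% of 32817 promoters. It was found in 14 of the 19 matched members that were lower at P25 in both genotypes and in all 5 of those that were higher. A TATA box, searched as TATAAA on both strands, was found in 2 of 32 members, against 12.4% of all promoters. An E-box, searched as CANNTG (N for any base), was found in 13 of 32, against 66.2%. The 32817 promoters were not limited to the genes tested here, while each member gave 1 window. These shares are therefore not set against promoters of like genes. Exons of Efna3 overlap an antisense transcript over 14.1% of their length and those of Efna4 over 10.5%, and the sources used here do not say whether counting used strand.

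All 3 ephrin-B ligands were lower at P25 in both genotypes. Efnb1 read 59.8, 55.1, 57.1 and 33.9 CPM in the P25 KO libraries and 55.7, 48.1, 62.1 and 51.1 CPM in the P25 WT libraries, against 216, 189.6, 197 and 179 CPM in E14 KO and 185, 322, 193 and 159 CPM in E14 WT. Efnb1 was the highest ephrin-B per kb at both stages, its stages were separate, and its log2 fold change was -1.92 (SE 0.21, adjusted p = 2.24e-07) in KO and -1.99 (SE 0.21, adjusted p = 1.42e-07) in WT. Efnb3 read 8.15, 6.98, 10.2 and 6.87 CPM in the P25 KO libraries and 6.401, 4.68, 4.56 and 10.3 CPM in the P25 WT libraries, against 18.1, 24.5, 23.8 and 27.5 CPM in E14 KO and 26.3, 37.2, 28.2 and 25.2 CPM in E14 WT. For Efnb3 the stages did not overlap in either genotype, and the log2 fold change was -1.54 (SE 0.25, adjusted p = 2.19e-05) in KO and -2.17 (SE 0.25, adjusted p = 3.77e-07) in WT. Efnb2, known for marking arteries as well as for axon guidance, had a log2 change of -1.13 (SE 0.23, adjusted p = 2.48e-04) in KO and -1.08 (SE 0.23, adjusted p = 3.59e-04) in WT.

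Of the 9 EphA receptors, 5 were lower at P25 in both genotypes, Epha2 and Epha4 were called lower in WT alone, Epha5 and Epha6 were not called, and none was higher. Epha8 read 1.19, 1.68, 0.913 and 0.794 CPM in the P25 KO libraries and 1.37, 0.758, 1.47 and 0.773 CPM in the P25 WT libraries, against 35.1, 22.4, 22.5 and 27.6 CPM in E14 KO and 26.6, 47.9, 25.3 and 22.9 CPM in E14 WT. Epha8 was at most 1.68 CPM in any P25 library, and its log2 fold change was -4.55 (SE 0.32, adjusted p = 3.48e-10) in KO and -4.80 (SE 0.32, adjusted p = 1.65e-10) in WT. Epha6 read 18.8, 15.6, 12.9 and 12.3 CPM in the P25 KO libraries and 16.5, 15.3, 18.1 and 6.14 CPM in the P25 WT libraries, against 17.4, 17.03, 13.2 and 14.2 CPM in E14 KO and 15.9, 11.2, 20.6 and 19.5 CPM in E14 WT. Epha6 showed overlapping stages, with a change on the log2 scale of -0.05 (SE 0.27, adjusted p = 0.882) in KO and -0.26 (SE 0.27, adjusted p = 0.4197) in WT. Its estimate in KO was so close to 0 that leaving out any of E14 KO replicates 1 and 2 and P25 KO replicates 3 and 4 made it positive (0.01 to 0.06). Epha4 read 9.63, 8.71, 7.85 and 8.53 CPM in the P25 KO libraries and 8.86, 8.05, 6.78 and 4.75 CPM in the P25 WT libraries, against 7.27, 13.3, 8.68 and 13.9 CPM in E14 KO and 12.5, 8.72, 14.4 and 15.6 CPM in E14 WT. Epha4, a receptor that binds ephrins of both classes, overlapped between stages in both genotypes and had a log2 change of -0.31 (SE 0.25, adjusted p = 0.281) in KO and -0.85 (SE 0.25, adjusted p = 0.00598) in WT. Epha2 had -0.35 (SE 0.28, adjusted p = 0.297) in KO and -0.91 (SE 0.28, adjusted p = 0.00901) in WT, and Epha5 had 0.43 and 0.32 (adjusted p = 0.318 and 0.461). The receptors Epha1, Epha3, Epha7 and Epha10 (a receptor without kinase activity) were lower in both genotypes. With Ephb3, Ephb4, Efna5 and Efnb2, these 8 members ranged between -2.61 and -0.97 in KO and between -2.39 and -0.84 in WT. Of these, Epha1 was near the floor, at means of 0.168 CPM in P25 KO and 0.0906 in P25 WT, against 0.496 in E14 KO and 0.477 in E14 WT. Its stages overlapped in KO, where the adjusted p was 0.0428.

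EphB receptors split by member. Ephb2 read 11.7, 8.14, 11.2 and 8.37 CPM in the P25 KO libraries and 11.7, 10.9, 12.8 and 8.96 CPM in the P25 WT libraries, against 157, 171, 147 and 148 CPM in E14 KO and 154, 299, 187 and 158 CPM in E14 WT. Ephb2 was 15.8-fold lower at P25 in KO and 17.98-fold lower in WT, and its log2 fold change was -3.98 (SE 0.23, adjusted p = 1.27e-11) in KO and -4.17 (SE 0.23, adjusted p = 7.14e-12) in WT. Ephb6 read 99.3, 97.9, 114 and 81.03 CPM in the P25 KO libraries and 85.9, 86.3, 103 and 99.99 CPM in the P25 WT libraries, against 36.02, 37, 43.6 and 42.9 CPM in E14 KO and 37.5, 65.7, 39 and 31.1 CPM in E14 WT. Ephb6, whose kinase domain is inactive, was the EphB receptor that rose, with separate stages in both genotypes and a change on the log2 scale of 1.30 (SE 0.20, adjusted p = 1.25e-05) in KO and 1.11 (SE 0.20, adjusted p = 6.64e-05) in WT. Ephb3 and Ephb4 were lower in both genotypes, and Ephb1 was called in KO alone at -0.56 (SE 0.21, adjusted p = 0.0276), against -0.48 (SE 0.21, adjusted p = 0.0562) in WT. Ephb2 and Epha8 are neighbours on chromosome 4 with a gap of 93.4 kb. The 3 genes between them, C1qa, C1qb and C1qc, encode complement C1q and were all called higher at P25, by log2 fold changes of 1.69 to 2.14 in KO and 1.23 to 1.92 in WT.

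The Slit ligands moved in different directions. Slit2 read 30.1, 30.4, 29.1 and 27.8 CPM in the P25 KO libraries and 26.1, 33.5, 33.8 and 19.6 CPM in the P25 WT libraries, against 12.4, 14.2, 13.1 and 10.5 CPM in E14 KO and 11.9, 8.84, 21.9 and 19.98 CPM in E14 WT. Slit2 rose, with a log2 change of 1.22 (SE 0.25, adjusted p = 2.48e-04) in KO and 0.85 (SE 0.24, adjusted p = 0.00518) in WT, and its stages were separate in KO and overlapped in WT. Slit3 read 6.59, 5.17, 5.61 and 5.79 CPM in the P25 KO libraries and 7.85, 8.01, 9.15 and 3.67 CPM in the P25 WT libraries, against 22.7, 32.6, 25.2 and 25.7 CPM in E14 KO and 24.8, 42.7, 47.1 and 41.4 CPM in E14 WT. Slit3 fell, with separate stages in both genotypes and a change on the log2 scale of -2.20 (SE 0.25, adjusted p = 3.75e-07) in KO and -2.44 (SE 0.25, adjusted p = 8.48e-08) in WT. Slit1 read 189.5, 176, 171 and 158 CPM in the P25 KO libraries and 234, 199.8, 243 and 101 CPM in the P25 WT libraries, against 191, 164, 159 and 214 CPM in E14 KO and 150.5, 348, 179.8 and 143 CPM in E14 WT. Slit1 was the highest Slit per kb in every group and was not called, at -0.07 (SE 0.26, adjusted p = 0.837) in KO and -0.08 (SE 0.26, adjusted p = 0.818) in WT. Its estimate changed sign in some alternatives, ranging between -0.20 and 0.30 in WT.

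Neither Robo1 nor Robo2, the 2 Robo receptors of the set, was called between stages. Outside the set, Robo3 was called higher at P25 in both genotypes and Robo4 lower. Robo3 was low throughout, at means of 0.96 CPM in P25 KO and 1.12 in P25 WT, against 0 in E14 KO and 0.026 in E14 WT. Robo2 read 93.1, 81.8, 69.2 and 90.6 CPM in the P25 KO libraries and 94.04, 71.05, 87.7 and 43.1 CPM in the P25 WT libraries, against 84.9, 117, 93.5 and 75.9 CPM in E14 KO and 70.1, 28.97, 148 and 117 CPM in E14 WT. The stages of Robo2 overlapped, and its log2 fold change was -0.15 (SE 0.33, adjusted p = 0.713) in KO and -0.30 (SE 0.33, adjusted p = 0.456) in WT. Without E14 WT replicate 2, where Robo2 was lowest at 29.0 CPM, the WT value was -0.59 (adjusted p = 0.0403), and without E14 WT replicate 3 it was 0.08. Robo1 had a log2 change of -0.10 (SE 0.32, adjusted p = 0.813) in KO and -0.43 (SE 0.32, adjusted p = 0.259) in WT.

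Netrins changed places. Ntn3 read 8.399, 9.22, 7.12 and 7.22 CPM in the P25 KO libraries and 5.92, 7.67, 9.76 and 7.73 CPM in the P25 WT libraries, against 62.5, 56.9, 59.6 and 62.6 CPM in E14 KO and 52.6, 115, 63 and 49.95 CPM in E14 WT. Ntn3, a netrin known from developing sensory ganglia in mice, was lower at P25 with separate stages, at -2.92 (SE 0.24, adjusted p = 3.68e-09) in KO and -3.17 (SE 0.25, adjusted p = 1.19e-09) in WT. Ntn4 read 11.2, 9.82, 11.6 and 8.49 CPM in the P25 KO libraries and 10.5, 9.102, 11.3 and 7.61 CPM in the P25 WT libraries, against 2.401, 1.03, 2.796 and 1.52 CPM in E14 KO and 1.696, 0.549, 1.93 and 2.15 CPM in E14 WT. Ntn4, a netrin of basement membranes, was higher by a change on the log2 scale of 2.42 (SE 0.33, adjusted p = 3.72e-06) in KO and 2.59 (SE 0.34, adjusted p = 1.74e-06) in WT, the largest rise among the 38 members. Ntn1 read 12.8, 10.5, 13.9 and 8.97 CPM in the P25 KO libraries and 11.7, 9.27, 10.3 and 8.77 CPM in the P25 WT libraries, against 4.55, 2.38, 2.505 and 2.24 CPM in E14 KO and 4.17, 7.75, 3.01 and 4.78 CPM in E14 WT. Ntn1, the netrin that attracts commissural axons, was higher by 1.99 (SE 0.29, adjusted p = 6.83e-06) in KO and 1.03 (SE 0.28, adjusted p = 0.00344) in WT. The stages of Ntn1 and Ntn4 did not overlap in either genotype.

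Neo1 was the highest netrin receptor per kb at E14, while at P25 it and Unc5a lay within 1 SD of each other. Neo1 read 50.6, 44.7, 46.4 and 43.2 CPM in the P25 KO libraries and 52.6, 51.8, 60.2 and 29.2 CPM in the P25 WT libraries, against 127, 184, 133 and 139.5 CPM in E14 KO and 136, 168, 173 and 164 CPM in E14 WT. Neo1 was lower at P25 with separate stages, at -1.66 (SE 0.19, adjusted p = 4.38e-07) in KO and -1.73 (SE 0.19, adjusted p = 2.47e-07) in WT. Dcc read 1.28, 1.08, 0.776 and 1.35 CPM in the P25 KO libraries and 1.01, 0.337, 1.08 and 0.425 CPM in the P25 WT libraries, against 1.83, 2.43, 0.757 and 1.09 CPM in E14 KO and 1.93, 0.732, 4.04 and 2.28 CPM in E14 WT. Dcc, the receptor for netrin attraction, had overlapping stages in both genotypes and was called lower in WT alone, at -0.45 (SE 0.48, adjusted p = 0.438) in KO and -1.64 (SE 0.49, adjusted p = 0.00702) in WT. Unc5c read 14.9, 11.7, 10.2 and 10.8 CPM in the P25 KO libraries and 11.6, 15, 11.7 and 8.58 CPM in the P25 WT libraries, against 25.5, 47.1, 31.6 and 33.6 CPM in E14 KO and 31.3, 18.2, 49.7 and 30.5 CPM in E14 WT. Unc5c, a receptor for netrin repulsion, was lower with separate stages in both genotypes, at -1.53 (SE 0.26, adjusted p = 5.21e-05) in KO and -1.47 (SE 0.26, adjusted p = 8.39e-05) in WT. Unc5a read 24.1, 23.8, 22.2 and 18.97 CPM in the P25 KO libraries and 24.96, 15.9, 24.9 and 19.6 CPM in the P25 WT libraries, against 5.12, 7.75, 6.64 and 5.76 CPM in E14 KO and 6.602, 15.2, 8.41 and 4.601 CPM in E14 WT. Unc5a was the Unc5 receptor that rose, with separate stages and a log2 change of 1.81 (SE 0.28, adjusted p = 1.54e-05) in KO and 1.30 (SE 0.28, adjusted p = 4.36e-04) in WT. Unc5b and Unc5d were called lower in WT alone, at -0.69 (SE 0.29, adjusted p = 0.04799) and -1.15 (SE 0.32, adjusted p = 0.00419), against -0.08 and -0.71 in KO (adjusted p = 0.837 and 0.0616).

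Draxin showed the largest stage difference of the 38 members. Draxin read 2.96, 1.59, 1.96 and 2.26 CPM in the P25 KO libraries and 2.78, 2.44, 2.55 and 1.08 CPM in the P25 WT libraries, against 156, 150.2, 142 and 145 CPM in E14 KO and 135, 218, 176 and 152 CPM in E14 WT. The stages were far apart, a 67.2-fold difference in KO and a 76.7-fold difference in WT. The log2 fold change was -6.07 (SE 0.28, adjusted p = 7.31e-13) in KO and -6.26 (SE 0.28, adjusted p = 4.42e-13) in WT. Rgma read 32.4, 24.7, 25.7 and 22.2 CPM in the P25 KO libraries and 27.3, 20.5, 26.7 and 19.3 CPM in the P25 WT libraries, against 36.5, 45.9, 47.5 and 34.3 CPM in E14 KO and 38.97, 86.4, 43.5 and 33.1 CPM in E14 WT. Rgma, a lipid-anchored ligand of Neo1, was lower, at -0.64 (SE 0.25, adjusted p = 0.0304) in KO and -1.10 (SE 0.25, adjusted p = 7.53e-04) in WT, and its stages did not overlap in either genotype. In KO the Rgma call was lost when E14 KO replicate 2 (adjusted p = 0.0672) or 3 (0.0887) was left out, and likewise P25 KO replicate 2 (0.0725), 3 (0.0601) or 4 (0.0880).

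The promoters of Draxin, which fell furthest, and Unc5a, which rose, are shown in the same way, at chr4:148130699-148130914 on the minus strand and chr13:54949161-54949410 on the plus strand.
Draxin: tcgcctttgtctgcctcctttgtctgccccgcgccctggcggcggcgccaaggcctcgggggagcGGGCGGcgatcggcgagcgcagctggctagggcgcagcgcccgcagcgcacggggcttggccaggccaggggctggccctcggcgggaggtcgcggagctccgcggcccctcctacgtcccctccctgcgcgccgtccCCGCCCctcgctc
Unc5a: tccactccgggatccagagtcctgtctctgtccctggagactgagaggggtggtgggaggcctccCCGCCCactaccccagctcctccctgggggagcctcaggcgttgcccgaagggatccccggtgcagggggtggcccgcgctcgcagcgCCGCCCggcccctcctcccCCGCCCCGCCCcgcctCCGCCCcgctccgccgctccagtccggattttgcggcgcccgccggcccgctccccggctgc
The 216 bases of Draxin hold 2 GC boxes and 30 CpG, and the 250 bases of Unc5a hold 5 GC boxes and 25 CpG. In whole windows of 250 bases the median is 6 CpG over all promoters, which were not limited to the genes tested here. Over the 32 matched members it is 19.5.

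Levels of different genes were compared as CPM per kilobase of exon. At P25 the highest member was Slit1, at 29.3 ± 2.17 CPM per kb in KO and 32.8 ± 11 in WT (SD, n = 4 each). Ephb6 followed at 25.99 ± 3.58 in KO and 24.9 ± 2.38 in WT, with an SD range that overlapped that of Slit1. At E14 Efnb1 was highest, at 56.6 ± 4.51 in KO and 62.2 ± 21.2 in WT, followed by Slit1 and Draxin, which lay within their spread of each other. Dcc and Epha1 were among the lowest in every group.

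In several families a different member led at each stage. Among the EphA receptors, Epha6 led at P25 with 32.8% of the summed level per kb in KO and 33.7% in WT, against 13.9% in E14 KO and 13.3% in E14 WT, where Epha8 led. In the EphB family Ephb6 made up 76.5% of the summed level per kb in P25 KO and 72.6% in P25 WT, against 24.1% in E14 KO and 21.9% in E14 WT, while Ephb2 made up 2.30% and 2.58% at P25, against 28.2% and 30.3% at E14. Efna1 made up 68.9% of the ephrin-A sum in P25 KO and 69.0% in P25 WT, against 16.2% in E14 KO and 15.8% in E14 WT, when Efna2 led. Among the 3 netrins of the set, Ntn3 gave 25.7% in P25 KO and 26.8% in P25 WT, against 92.4% in E14 KO and 91.2% in E14 WT. Ntn4 led these 3 at P25 with 44.6% in KO and 45.1% in WT. Ntn5, outside the set at means of 7.38 CPM in P25 KO and 5.80 in P25 WT, was not part of the sum. Unc5a gave 73.4% of the Unc5 sum at P25 in both genotypes, against 31.9% in E14 KO, where Unc5c led, and 34.5% in E14 WT. Draxin and Rgma changed places, Rgma giving 91.8% of their sum in P25 KO and 91.0% in P25 WT, against 20.6% in E14 KO and 21.1% in E14 WT. Slit1, Robo2, Efnb1 and Neo1 led their families at both stages. With the longest transcript as the length, Epha10 in place of Epha8 led the EphA receptors at E14, and Unc5c in place of Unc5a led the Unc5 receptors in E14 WT.

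**Figure D3:**
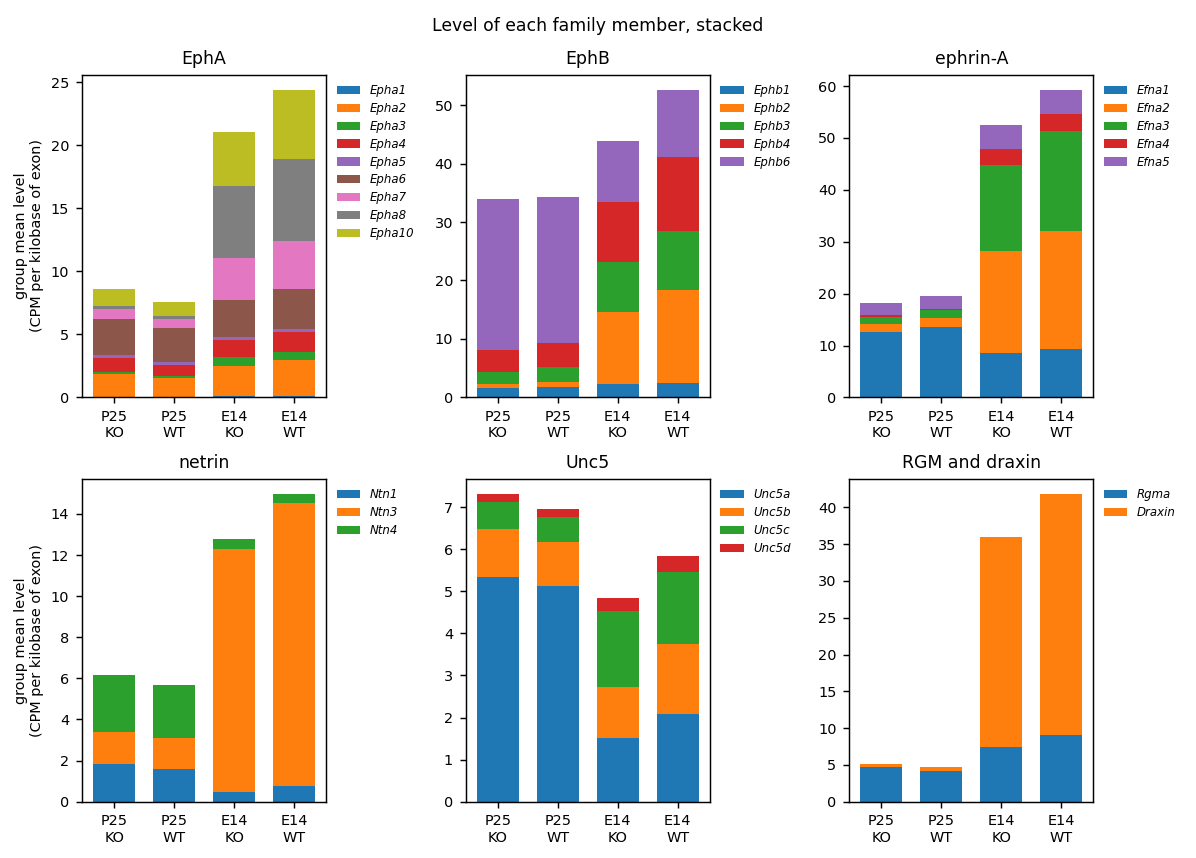
Stacked group means of CPM per kb of exon (n = 4 libraries each, no error shown) for the members of 6 families, in P25 KO, P25 WT, E14 KO and E14 WT. Ephb6, Efna1, Ntn4, Unc5a and Rgma take the largest part of their bars at P25, and Ephb2, Efna2, Ntn3 and Draxin take the largest part of theirs at E14.

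No member was called between KO and WT at either stage. At E14, none of the 38 members passed the edgeR threshold between KO and WT, while 0.0199% of all genes did (3 of 15109). DESeq2 also called no member. Unadjusted p was under 0.05 for 2 members, Ntn1 and Slit3, and for 4.86% of all genes. These 2 were not stable: without E14 WT replicate 2 neither passed and Epha7 and Slit2 did, and without E14 KO replicate 3 or without E14 KO replicate 4 the count was 0. At P25 none of the 38 was called, against 0.0463% of all genes (7 of 15109), and DESeq2 called none. No member had an unadjusted p under 0.05, while 1.87% of all genes did. Without P25 WT replicate 4, 2 members did, Slit3 and Efnb3. The libraries of KO and WT did not separate for any member at either stage, while 3.32% of all genes separated at P25 and 1.63% at E14. The largest E14 difference by unadjusted p was in Ntn1, which read 4.55, 2.38, 2.505 and 2.24 CPM in KO, against 4.17, 7.75, 3.01 and 4.78 CPM in WT, a log2 difference of -0.76 (95% interval -1.36 to -0.16). Ntn1 had an unadjusted p of 0.0158 and an adjusted p of 0.942 in edgeR, and its KO and WT libraries overlapped. Slit3 differed by -0.55 (95% interval -1.05 to -0.05), with an unadjusted p of 0.0325 and an adjusted p of 0.942. Ephb2 differed by -0.36 (95% interval -0.77 to 0.06) and Unc5a by -0.45 (95% interval -1.04 to 0.13). At P25, the lowest unadjusted p values were those of Dcc, Slit3, Efnb3 and Epha4. Dcc differed by 0.65 (95% interval -0.39 to 1.68), Slit3 by -0.31 (95% interval -0.83 to 0.21), Efnb3 by 0.31 (95% interval -0.21 to 0.82) and Epha4 by 0.29 (95% interval -0.23 to 0.81). All 4 intervals included 0.

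At E14 the log2 difference was below 0 for 32 of 38 members, with a median of -0.20, and for 56.3% of all genes, whose median was -0.04. Without E14 WT replicate 2, 23 of 38 members and 50.2% of all genes were below 0, and the members' median was -0.05. Macrophage markers lay the same way at E14, with all 5 below 0 and a median of -0.76, and their summed level was 31.2 to 42.8 CPM in KO and 40.7 to 67.5 CPM in WT. None of the 5 was called by edgeR or by DESeq2, and in edgeR the unadjusted p was 8.39e-04 for Csf1r, 0.00468 for Aif1, 0.00617 for Cx3cr1, 0.0377 for Adgre1 and 0.232 for C1qa. At P25 all 5 macrophage markers were again below 0, with a median of -0.27. E14 medians were also below 0 for skeletal muscle (-0.60), Schwann cell precursor (-0.23), oligodendrocyte (-0.21), mesenchyme (-0.18), progenitor (-0.09) and satellite glia (-0.04) markers, and for the 1 epithelial marker tested (-1.24). They were above 0 for endothelial (0.08), myelinating Schwann cell (0.05), cell cycle (0.02) and sensory neuron (0.02) markers. The part of these cell types in the members' direction was not tested. At P25, 23 of 38 were above 0 with a median of 0.06 (all genes 46.4% above 0, median -0.02), and without P25 WT replicate 4, 22 of 38 were below 0. For the difference between the stage changes of KO and WT, edgeR and DESeq2 each called no member. Over all genes edgeR called 0% (4.28% had an unadjusted p under 0.05) and DESeq2 called 8 genes. Unadjusted p was under 0.05 for 1 member, Ntn1, at a log2 value of 0.96 (95% interval 0.14 to 1.79) and an adjusted p of 0.993 in edgeR. Efnb3 followed at 0.62 (95% interval -0.09 to 1.34). Members called in 1 genotype alone were therefore not shown to differ between genotypes.

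**Figure D4:**
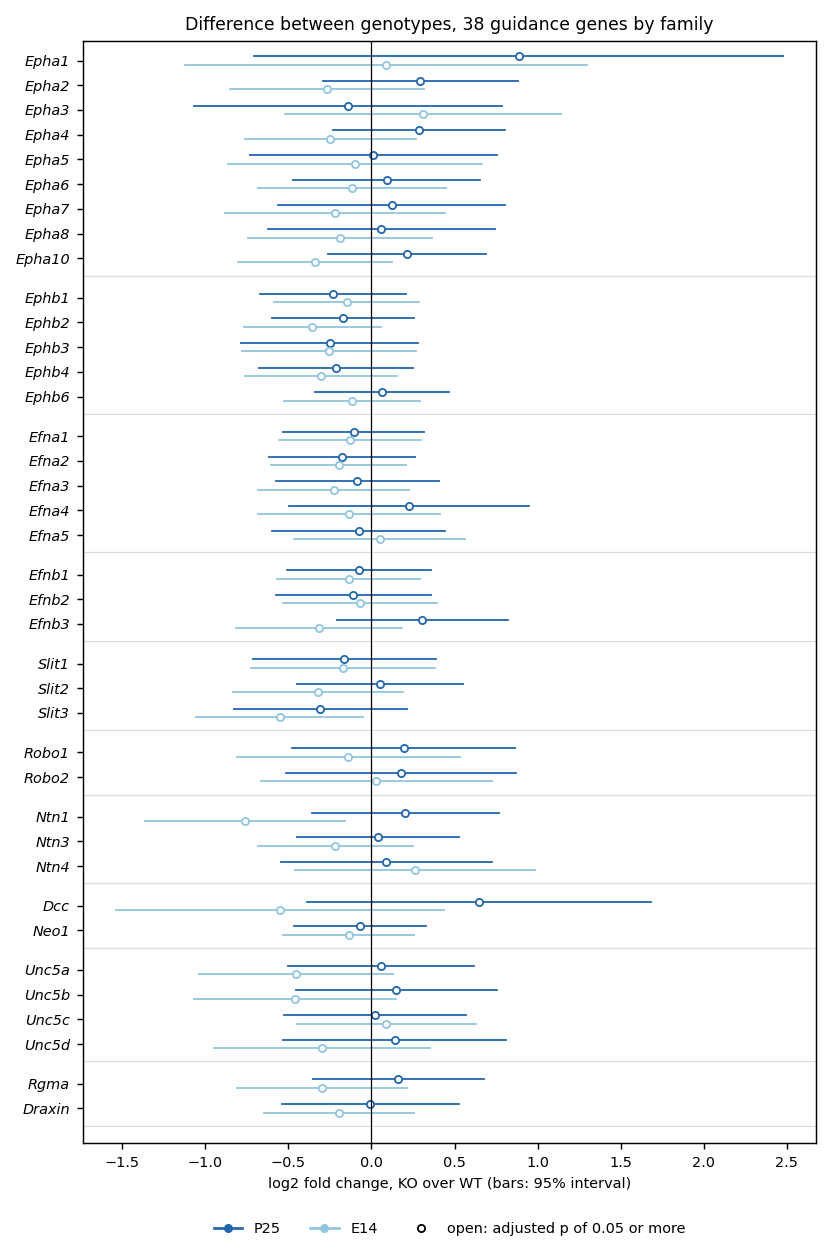
Log2 difference of KO minus WT for each of the 38 members at P25 and at E14, with 95% intervals. All intervals include 0 except those of Ntn1 and Slit3 at E14, and no member passed the adjusted threshold.

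Of 62 other genes of the same pathways, in 4 lists, 39 were called between stages in KO and 36 in WT, shares near the 59.8% and 59.6% of all genes tested. Of 13 other family members and partners, 4 were called higher and 6 lower in KO, and the same numbers in WT. Ntn5, a further netrin, was higher, as were the netrin-G genes Ntng1 and Ntng2, at log2 fold changes of 1.09 and 1.57 in KO and 0.84 and 1.03 in WT, and Robo4, Flrt1 and Flrt2 were lower. Of 26 genes of Eph and ephrin signalling, 7 were higher and 8 lower in KO and 4 higher and 11 lower in WT, with Ngef, which binds EphA receptors, at 2.88 in KO and 3.22 in WT and Nck2, an adaptor, at -2.25 and -2.60. Of 11 genes of Slit and Robo signalling, 3 were higher and 1 lower in KO and 1 higher and 1 lower in WT, the fall being Srgap1, which binds Robo receptors, at -0.83 in KO and -1.25 in WT. Of 12 genes of netrin, Dcc and RGM signalling, 6 were higher and 4 lower in KO and 5 higher and 4 lower in WT. Wasl, an activator of actin assembly, was at 1.72 in KO and 1.73 in WT, and Trim67, a ubiquitin ligase that binds Dcc, was at -2.04 and -2.40. No gene of these 4 lists was called between genotypes by edgeR at either stage. Unadjusted p was under 0.05 for Vav2 and Abl2 at E14 and for Robo4 at P25, and DESeq2 called 0 of them at P25 and 0 at E14.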

How the data were processed

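Polyadenylated RNA of 16 mouse trigeminal ganglia was sequenced from TruSeq stranded libraries, per the labels' protocols. The authors deposited estimated counts for each gene, all of them whole, so rounding changed nothing. Tools named in the submitters' processing notes, with no role given, are fastp 0.20.0 and kallisto 0.46, DESeq2 1.32.0 and the assembly GRCm39. Neither the transcript annotation nor the strand setting is known from the labels.

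Genes were filtered with filterByExpr and tested with edgeR 4.0.16 (quasi-likelihood, TMM) in R 4.3.3, in 1 fit of the 4 group means to all 16 libraries. P-values were adjusted over 15109 genes by Benjamini-Hochberg. Library totals of 15532373 to 29562379 limit the precision of low genes such as Epha1. Exon lengths and positions came from GENCODE M21 (GRCm38). Alternatives were DESeq2 1.42.0, other scalings and filters, a replicate block, the compared libraries alone, summed same-numbered ganglia, and each library left out. The fits were also run on simulated counts of independent libraries. That run held no library that stood apart and no paired ganglia, so it does not bear on those limits.

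Values in every library are given for up to 8 rises and 8 falls between stages called in both genotypes (6 rises and 8 falls were found), the 4 lowest p values of each genotype comparison, the 2 lowest of the interaction, and the leading member of each family, from members averaging at least 1 CPM. The members and lists were chosen with earlier results of these data known.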

Additional observations from a re-analysis of the deposited data

Results flagged for a closer look

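In 96 groups of 4 libraries, those of the named members, the highest or lowest library was set against the spread of the others by Dixon's critical value, which chance passes in about 5% of groups. It was passed in 3 groups. Ntn1 read 4.55 CPM in E14 KO replicate 1, far above the other 3 E14 KO libraries. Efna1 read 26.1 CPM in P25 KO replicate 3, above the other P25 KO libraries. Epha8 read 47.9 CPM in E14 WT replicate 2, the library that stood apart for many members.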

How the results depend on the processing

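The number of members called stayed within 1.5 times under every alternative run. With 1 library left out, it was 25 to 29 in KO and 29 to 33 in WT between stages, and 0 for both genotype comparisons and the interaction. Over all genes, these stage counts ran between 8343 of 15243 and 10284 of 15314 in KO. In WT they ran between 8408 of 15258 and 9688 of 15314. With DESeq2, 27 members were called in KO and 31 in WT, against 9424 and 9508 of 20220 genes. The replicate block gave 27 in KO, 31 in WT and 0 between genotypes. Its counts over all 15109 genes were 8744 in KO and 8679 in WT, and between genotypes 3 at P25 and 2 at E14. Libraries with the same replicate number in different groups did not deviate together (correlations of -0.392 to 0.216). For the R and L pairs that share a library number, the correlation was -0.789 (E14 WT replicates 2 and 4) and -0.354 (E14 KO replicates 1 and 3). Deviations from the mean of the same 4 libraries are pulled below 0, so these values cannot show whether a pair came from 1 embryo. The members' median ranged up to -0.75 in KO, without E14 KO replicate 2, and up to -1.11 in WT, without E14 WT replicate 3. Estimates near 0 changed sign. With 1 library left out, Epha6 ranged between -0.18 and 0.0584 in KO, Slit1 between -0.11 and 0.0438 in KO and between -0.20 and 0.30 in WT, and Robo2 between -0.59 and 0.0823 in WT. Slit1 in WT was 0.00947 with no filter on low counts and 0.10 with same-numbered ganglia summed. Efna1 in WT also lost its call with the compared libraries alone (adjusted p = 0.0886). Of 40 levels per kb, 13 moved by more than the spread of the libraries with the longest transcript as the length. The cause of these changes was not tested.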
